A study of Homo sapiens with 6 samples.

Results

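The aryl hydrocarbon receptor (AHR) axis was described in PC9 cells, a human lung adenocarcinoma cell line, from 7 genes of the deposited gene table, which lists 16306 genes. The genes were CYP1B1, CYP1A1, AHR, AHRR, ARNT, ARNT2 and TIPARP, found by symbol, and 6 of them passed the filter on low counts, while CYP1A1 did not. They were chosen because CYP1B1 was high and ARNT2 was low in the comparison described here, so that their own values are given without a test. RNA-seq had been made from 3 PC9 samples with a negative control shRNA (sh-NC) and from 3 with an shRNA against RBM10 (shRBM10). RBM10 encodes an RNA-binding protein that takes part in the choice of exons during splicing, and the study set out to learn which genes its loss affects in lung adenocarcinoma that spreads to the brain. All 6 samples came from the same line, and the labels and the study's methods name no other treatment. The study used 2 shRNAs against RBM10 and the labels do not say which of them the sequenced cells carried, nor whether the samples of a group came from separate cultures.

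AHR is a transcription factor of the bHLH-PAS family that is held in the cytoplasm by a chaperone complex. When a ligand binds, such as a polycyclic aromatic hydrocarbon or a tryptophan metabolite, AHR moves to the nucleus and pairs with ARNT, and the pair binds DNA at xenobiotic response elements. Its best known targets are the cytochromes P450 CYP1A1 and CYP1B1, which oxidise many of the ligands, and AHRR and TIPARP, which act back on the receptor as repressors. ARNT2 is a close relative of ARNT that is best known from neural tissue and the kidney and that pairs with several bHLH-PAS proteins. In the airway epithelium the pathway is known for its response to tobacco smoke.

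Levels are given as normalized CPM, the counts of a gene per 1000000 counts of a library after TMM scaling (edgeR). The libraries held between 16606401 and 18864241 counts on genes. Of the shRBM10 count columns only that of library A matched a sample title (replicate 1), and the others are called libraries B and C. The TMM factor was 0.738 in sh-NC replicate 2 and between 1.03 and 1.08 in the others. Across genes, sh-NC replicates 1 and 3 correlated at 0.996 with each other and at 0.945 and 0.947 with replicate 2. The deviation of a gene from its mean over the libraries correlated with the GC content of its transcript at -0.70 and -0.64 in shRBM10 libraries A and B, at 0.48 in library C and at 0.38 to 0.44 in sh-NC, so log2 fold changes with the GC trend removed and without sh-NC replicate 2 are also given below for the tested members, RBM10 and each gene past the unadjusted limits. The epithelial markers EPCAM, KRT7, KRT8, KRT18, KRT19, CDH1 and EGFR had at least 1224 counts in every library, whereas the lung lineage markers NKX2-1 and SFTPB had at most 3 and NAPSA 9 to 17. The summed levels of the fibroblast markers (2 of 5 in the table, 2.24 to 5.58 normalized CPM in sh-NC and 5.42 to 9.72 in shRBM10) and the endothelial markers (4 of 4, 5.44 to 10.2 and 2.68 to 3.75) were low, with COL1A2, PECAM1 and KDR at 3 counts or fewer, as were the astrocyte markers (3 of 3, at most 0.335). Of the same fibroblast and endothelial lists, COL1A1 had 28 to 185 counts, CDH5 40 to 177 and VWF 5 to 27 across the libraries. The part of these markers in the results was not tested. Of the leukocyte markers CD68 alone passed 10 counts, and it had 1795 to 2442 counts (98.5 to 182 normalized CPM). The protocol text speaks of retinas, and of the photoreceptor markers RCVRN and SAG were not among the genes of the table, CRX had at most 3 counts and PDE6A 7 to 33.

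RBM10 (chromosome X, 47145221 to 47186813, plus strand, in RefSeq on GRCh38.p14) checked the labels. Its level was 77.9, 64.4 and 79.96 normalized CPM in sh-NC replicates 1, 2 and 3 and 29.2, 28.0 and 36.6 in shRBM10 libraries A, B and C. The groups did not overlap, and the level was 2.37-fold lower in shRBM10 (log2 fold change -1.24, SE 0.23, n = 3 and 3). The transcript of RBM10 is rich in GC (60.3%), and the log2 fold change was -0.81 with the GC trend removed and -1.42 without sh-NC replicate 2. The adjusted p of edgeR's quasi-likelihood test was 0.10, that of DESeq2 was 0.00157, and it lay between 0.00157 and 0.454 over all alternatives. Library C kept the highest RBM10 level of the shRBM10 libraries. Fewer cells with a transcript and less of it per cell cannot be told apart in these bulk samples.

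Over all 12620 genes tested, 2 passed an adjusted p under 0.05 with an absolute log2 fold change over 1 (0.0158%), and none of the 6 tested members was among them. The same limits on the unadjusted p were passed by 10.1% of genes toward higher and by 1.53% toward lower levels in shRBM10, and the gene groups below are read against these shares. The DESeq2 test called 4.64% of 12374 genes, with CYP1B1 and ARNT2 among them, and because both were picked from this comparison these calls are no independent evidence. All 3 shRBM10 libraries lay above all 3 sh-NC libraries in 13.8% of the genes tested and below them in 16.2%. Among the 6 members the levels of CYP1B1, AHRR and TIPARP lay above in this way and that of ARNT2 below, which the choice of genes fixes in part.

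**Figure D1:**
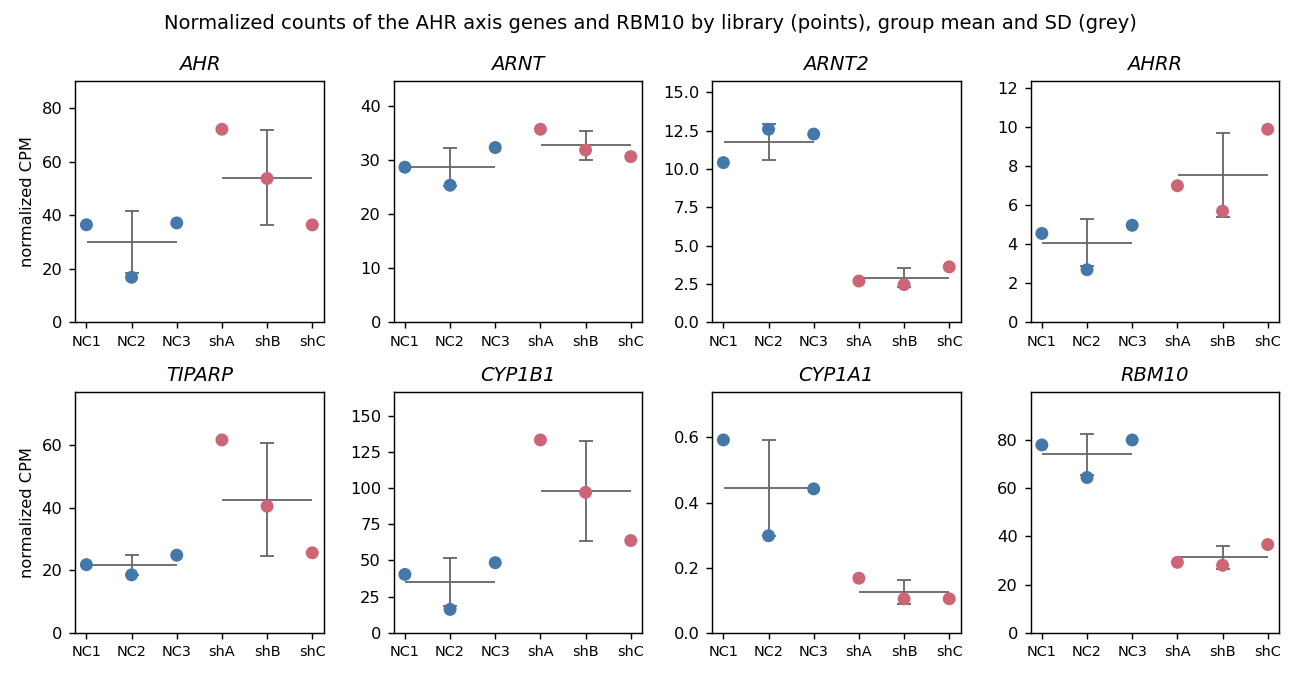
Normalized CPM of the 7 genes of the AHR axis and of RBM10 in each library. Blue points are sh-NC replicates 1 to 3 (NC1 to NC3), red points are shRBM10 libraries A to C (shA to shC), and grey lines give the mean and SD of each group. The axes start at 0 and differ between genes. ARNT2 lay between 10.4 and 12.6 in sh-NC and between 2.45 and 3.61 in shRBM10, and in AHR, TIPARP and CYP1B1 library A was the highest and library C the lowest of the shRBM10 libraries.

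Matches to the core letters of the response element near gene starts are shown first. AHRR, TIPARP and CYP1A1 are the genes by which activity of the receptor is usually read. The RefSeq promoter table (GRCh38.p14, from 250 bases before to 50 bases after each start) holds 8 windows for 5 of the genes, namely AHR, AHRR, ARNT, CYP1A1 and TIPARP, and CYP1B1 and ARNT2 have no window in it. The core letters of the response element, GCGTG on either strand, were found in 5 of the 8 windows (62.5%), in 14 of 27 windows of other AHR target genes (51.9%) and in 36.5% of all 35116 windows. The longer form TNGCGTG, which contains the core, was found in 1 of the 8 windows, in 22.2% of those of the other target genes and in 5.51% of all windows. The sequences below run 5′ to 3′ on the strand of the gene, and capitals mark the core, which reads CACGC where it lies on the opposite strand.
AHRR, first start, chr5:321464-321713, plus strand: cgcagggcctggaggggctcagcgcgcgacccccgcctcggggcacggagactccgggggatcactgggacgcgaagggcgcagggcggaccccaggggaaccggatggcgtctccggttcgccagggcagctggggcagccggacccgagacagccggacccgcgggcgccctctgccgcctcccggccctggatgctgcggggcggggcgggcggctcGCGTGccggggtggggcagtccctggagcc
AHRR, second start, chr5:322556-322584, plus strand: gcagaagggtggGCGTGtgcgcgcgttct
CYP1A1, chr15:74725569-74725597, minus strand: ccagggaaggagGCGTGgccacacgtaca
TIPARP, first start, chr3:156674370-156674398, plus strand: cgcgagaaaggaCACGCcccctcgcggga
TIPARP, first start, chr3:156674436-156674464, plus strand: cgaacgaacgcgCACGCgcgcgcaggggg

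The core began 30 bases before the first start of AHRR, where the letters before it also made the longer form, and 247 and 42 bases before the second, of which the latter is printed. It began 57 bases before the start of CYP1A1, and in TIPARP its leftmost base lay 208 and 142 bases before the first start. In AHR the only match began at position 38 after the start, and the window of ARNT held none. No measurement of binding was made in these libraries, and a match in so short a stretch describes the letters only.

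CYP1B1, the P450 that hydroxylates estrogens and activates polycyclic aromatic hydrocarbons, lies on chromosome 2 (38067509 to 38076151, minus strand). Its estimated counts were 817, 217 and 986 in sh-NC replicates 1, 2 and 3 and 2384, 1860 and 1219 in shRBM10 libraries A, B and C. After normalization these were 40.3, 16.2 and 48.4 against 133, 97.0 and 63.7 CPM. Every shRBM10 library was above every sh-NC library, with sh-NC replicate 2 the lowest of all and library C the closest to the controls. The mean was 35.0 ± 16.8 in sh-NC and 98.0 ± 34.7 in shRBM10 (SD, n = 3 each), 2.80-fold higher (log2 fold change 1.48, SE 0.41). The log2 fold change was 1.05 without sh-NC replicate 2, 1.18 with the GC trend removed and 0.80 with both. CYP1B1 is also the one gene of the 7 whose deposited counts were not whole numbers in any of the 6 libraries.

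CYP1A1 (chromosome 15, 74719542 to 74725528, minus strand), the P450 most used as a readout of AHR activity, was close to the limit of detection. Only 12, 4 and 9 counts were found in sh-NC replicates 1, 2 and 3 and 3, 2 and 2 in shRBM10 libraries A, B and C. Summed over the group there were 25 counts in sh-NC and 7 in shRBM10, so the few counts of CYP1A1 lay in the direction opposite to those of CYP1B1. In normalized CPM every shRBM10 library lay below every sh-NC library, as in 16.2% of the genes tested. The 95% exact Poisson intervals of single libraries cover counting error only. They reached from 6.20 to 21.0 counts in sh-NC replicate 1 and from 0.619 to 8.77 in library A, and these 2 overlapped. CYP1A1 did not pass the filter of the main fit, and no fold change is given for it.

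CYP1B1 was then placed among the cytochromes P450 of the cells per kilobase of transcript, with names picked after their levels were seen. In sh-NC its level of 6.66 ± 3.20 normalized CPM per kilobase lay near those of CYP2S1 (6.83) and CYP11A1 (6.47) and under those of CYP51A1, which makes sterols (17.7), and CYP4F11 (16.8). In shRBM10 its level was 18.7 ± 6.62, next to CYP51A1 (21.7) and CYP4F11 (19.4). The table held 41 other P450 genes and 14 of them passed the filter. One of the 14 (7.14%) passed the unadjusted limits upward, beside 10.1% of all genes, and none passed downward. This was CYP39A1, an oxysterol hydroxylase, counted 7, 1 and 8 times in the controls and 23, 37 and 14 times with the RBM10 shRNA (log2 fold change 2.17, SE 0.55, edgeR adjusted p = 0.144 and DESeq2 adjusted p = 0.0494, from 0.0158 to 0.502 over the alternatives). It was 1.63 with the GC trend removed and 1.73 without sh-NC replicate 2.

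AHR itself lies on chromosome 7 (17298652 to 17346147, plus strand). Its level was 36.4, 16.8 and 37.1 normalized CPM in sh-NC replicates 1, 2 and 3 and 72.2, 53.8 and 36.4 in shRBM10 libraries A, B and C. The groups overlapped, since library C equalled sh-NC replicate 1 to 3 digits and lay under replicate 3. The means were 30.1 ± 11.6 and 54.1 ± 17.9 (SD, n = 3 each), with a log2 fold change of 0.84 (SE 0.36). The transcript of AHR had the lowest GC content of the 7 genes (38.2%), and its log2 fold change was 0.30 with the GC trend removed, 0.47 without sh-NC replicate 2 and 0.03 with both.

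ARNT, the usual partner of AHR, lies on chromosome 1 (150809713 to 150876599, minus strand) and was near level. It stood at 28.7, 25.3 and 32.3 normalized CPM in sh-NC replicates 1, 2 and 3 and at 35.7, 31.9 and 30.6 in shRBM10 libraries A, B and C. The groups overlapped and the log2 fold change was 0.19 (SE 0.23), 0.10 with the GC trend removed and 0.018 without sh-NC replicate 2. It was the only one of the 7 with 2 or more transcripts past the filter, 10 of the 17 listed, so its use of transcripts could be tested, a measure that did not choose the genes. edgeR's diffSpliceDGE gave a Simes p of 0.914 and an adjusted p of 1.00, while 0.0958% of the 8348 genes tested for transcript use passed. The estimated shares of single ARNT transcripts scattered within groups, and transcript XM_017001288 took 26.7%, 29.1% and 8.09% of the ARNT counts in the controls, against 7.35%, 18.8% and 19.3% with the RBM10 shRNA. Of the transcripts past the filter, NM_001668 and XM_005245157 alone had shares without overlap between groups. NM_001668 took 24.1%, 22.9% and 16.2% in the controls against 11.5%, 15.8% and 14.7% with the RBM10 shRNA. XM_005245157 took 0%, 2.84% and 2.92% against 10.7%, 3.36% and 7.43%. These transcripts were named after their values were seen.

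ARNT2, on chromosome 15 (80404382 to 80597933, plus strand), differed between the groups in the opposite direction to CYP1B1. Its counts were 211, 169 and 250 in sh-NC replicates 1, 2 and 3 and 48, 47 and 69 in shRBM10 libraries A, B and C. Normalized, these were 10.4, 12.6 and 12.3 against 2.68, 2.45 and 3.61 CPM. The groups did not overlap, as the choice of this gene implies. The means were 11.8 ± 1.18 and 2.91 ± 0.61 (SD, n = 3 each), 4.03-fold lower in shRBM10 (log2 fold change -2.01, SE 0.30). The log2 fold change was -2.04 without sh-NC replicate 2, -1.80 with the GC trend removed and -1.84 with both. RefSeq places 2 antisense genes, ARNT2-AS1 and ARNT2-AS3, over ARNT2, and the strand setting of the counting is not given in the sources used here, so reads of the 2 strands may not be told apart. TIPARP overlaps its antisense gene TIPARP-AS1 in the same way. AHRR overlaps the read-through gene PDCD6-AHRR, and reads from stretches that these genes share may not be told apart, whatever the strand setting.

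**Figure D2:**
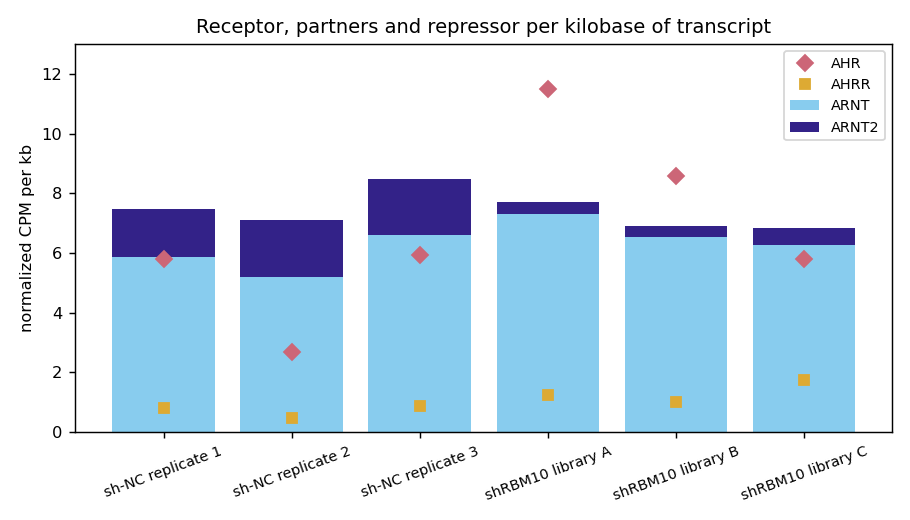
Levels per kilobase of transcript in each library, in normalized CPM per kilobase. Stacked bars give ARNT (light blue) with ARNT2 on top (dark blue), diamonds give AHR and squares AHRR. The stacked total lay between 6.82 and 8.48 in all libraries, while AHR was above it in shRBM10 libraries A and B alone.

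Per kilobase, ARNT2 made up 21.3%, 27.0% and 22.1% of the sum of both partners in sh-NC replicates 1, 2 and 3. In shRBM10 libraries A, B and C it made up 5.30%, 5.42% and 8.07%. The sum of both partners lay between 7.11 and 8.48 normalized CPM per kilobase in sh-NC and between 6.82 and 7.71 in shRBM10, and these ranges overlapped. The ratio of AHR to ARNT was 0.99, 0.52 and 0.89 in sh-NC and 1.57, 1.31 and 0.92 in shRBM10, where library C lay within the range of the controls. These shares, sums and ratios take ARNT at the length of NM_001668 alone (4887 bases), which held 11.5% to 24.1% of the ARNT counts.

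The repressors of the receptor were both higher in shRBM10, with different libraries in the lead. AHRR, which competes with AHR for ARNT (chromosome 5, 321714 to 438285, plus strand), stood at 4.54, 2.68 and 4.96 normalized CPM in sh-NC replicates 1, 2 and 3. It stood at 6.98, 5.68 and 9.88 in shRBM10 libraries A, B and C, so that library C, the lowest of its group for CYP1B1, AHR and TIPARP, was the highest for AHRR. The means were 4.06 ± 1.21 and 7.52 ± 2.15 (SD, n = 3 each), with a log2 fold change of 0.88 (SE 0.35). It was 0.57 without library C, 0.58 without sh-NC replicate 2 and 1.22 with the GC trend removed, AHRR having the highest GC content of the 7 (57.4%). The ratio of AHRR to AHR per kilobase was 0.138, 0.177 and 0.148 in sh-NC and 0.107, 0.117 and 0.301 in shRBM10, with library C apart from A and B.

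TIPARP, an ADP-ribosyltransferase that shuts the receptor off (chromosome 3, 156674590 to 156706770, plus strand), stood at 21.8, 18.6 and 24.9 normalized CPM in sh-NC replicates 1, 2 and 3. Its levels in shRBM10 libraries A, B and C were 61.7, 40.5 and 25.6, and library C was barely above the highest control. The means were 21.7 ± 3.15 and 42.6 ± 18.2 (SD, n = 3 each), with a log2 fold change of 0.97 (SE 0.33), which was 0.60 without library A, 0.56 with the GC trend removed, 0.78 without sh-NC replicate 2 and 0.45 with both of the last 2 changes.

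**Figure D3:**
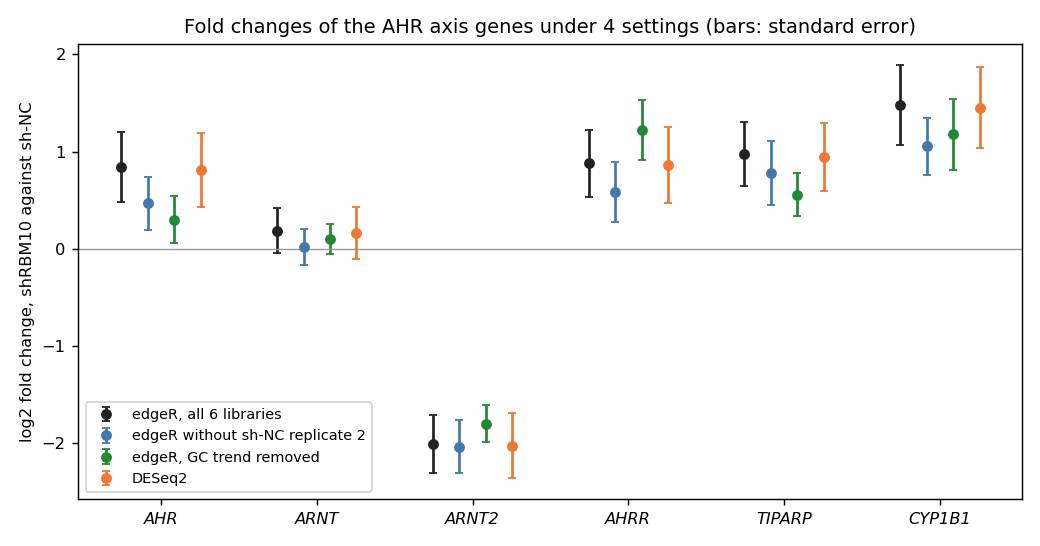
Log2 fold change of shRBM10 against sh-NC for the 6 tested genes of the AHR axis, with its standard error, in edgeR with all libraries, without sh-NC replicate 2, with the GC trend removed, and in DESeq2. ARNT2 stayed between -2.04 and -1.80 and CYP1B1 between 1.05 and 1.48 in these fits, whereas AHR ranged from 0.30 to 0.84.

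The order of levels per kilobase differed between the groups in 1 respect that held in every library. In sh-NC the mean levels were CYP1B1 6.66, ARNT 5.89, TIPARP 5.29 and AHR 4.80 normalized CPM per kilobase, and the libraries of these neighbours overlapped. ARNT2 followed at 1.79, then AHRR at 0.717 and CYP1A1 at 0.165, each below every library of the gene before it. In shRBM10 the order was CYP1B1 18.7, TIPARP 10.4, AHR 8.62 and ARNT 6.70, again with overlap between neighbours, and then AHRR at 1.33, ARNT2 at 0.444 and CYP1A1 at 0.0467. ARNT2 thus lay above AHRR in 3 of 3 sh-NC libraries and below it in 3 of 3 shRBM10 libraries. Because ARNT2 was chosen for its low level in shRBM10, this is no independent evidence.

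The genes most like CYP1B1 and ARNT2 over the 6 libraries, by Pearson's r of the log2 normalized level among 11070 genes with a mean count of at least 50, are a description only, since all points share the same libraries and their GC trends. For CYP1B1 they were RBL2 (r = 0.9996), SECISBP2, PLEKHM3, CDK19 and ZNF281 (r = 0.997), and 948 genes had an r above 0.95. For ARNT2 they included NOP2 (r = 0.998), FOSL1, SH2D2A and TOP3A (r = 0.993), and 202 genes had an r above 0.95.

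The other genes of the pathway came from 7 lists with 83 genes, of which 77 were in the table and 63 passed the filter. None passed the adjusted limits in edgeR, 7 passed the unadjusted limits toward higher levels (11.1%, beside 10.1% of all genes) and 3 toward lower levels (4.76%, beside 1.53%). Their median log2 fold change was -0.08 and that of all genes tested was 0.03. DESeq2 called 6 of the 62 for which it gave an adjusted p (9.68%, beside 4.64% of all genes), namely VAV3, NCOA3, ALDH3A1, HSP90AA1, QPRT and KYNU.

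**Figure D4:**
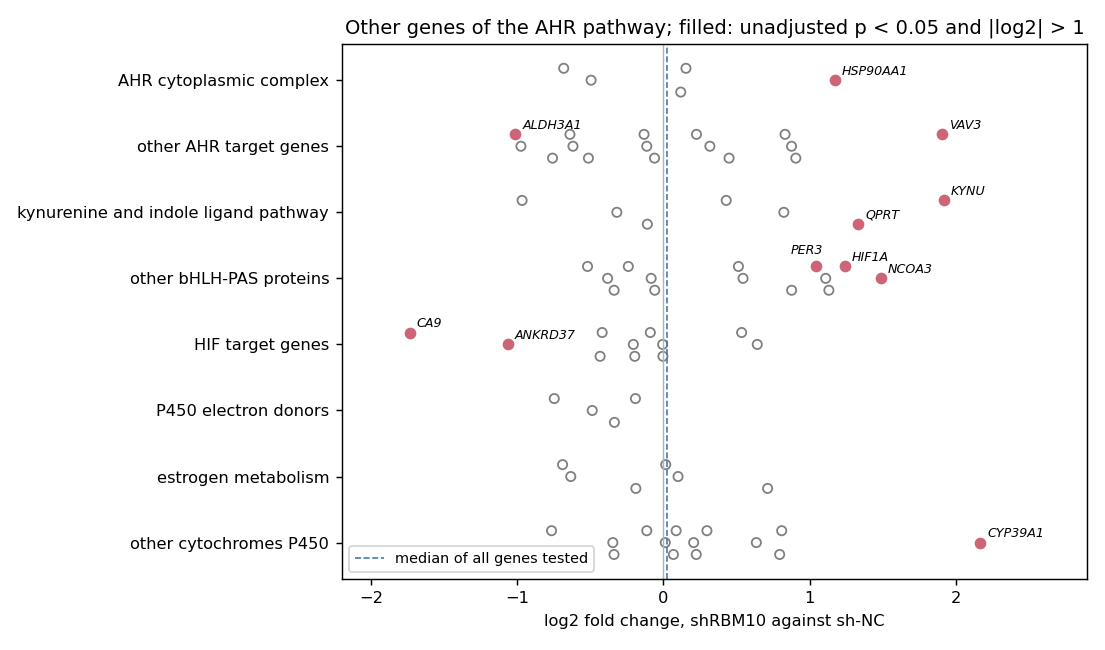
Log2 fold change of shRBM10 against sh-NC for each tested gene of the 7 pathway lists and of the other cytochromes P450. CYP2S1 is drawn in both the target list and the P450 row. Filled, named points passed an unadjusted p under 0.05 with an absolute log2 fold change over 1, open points did not, and the dashed line is the median of all genes tested (0.03). The 7 named points of the pathway lists above 0 fall in 4 lists, with 3 of them on the bHLH-PAS list, and 2 of the 3 below 0 are HIF targets.

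Genes that make or break down kynurenine, a ligand of AHR, were mostly low in these cells. IDO1, the enzyme that opens tryptophan on the way to kynurenine, had 0 to 6 counts in every library and was not tested. Of 13 genes, 11 were in the table and 7 were tested, with 2 higher (28.6%) and none lower by the unadjusted limits. KYNU, which cleaves kynurenine, stood at 38.5, 34.2 and 43.4 normalized CPM in sh-NC and at 187, 167 and 85.1 in shRBM10, with no overlap. Its log2 fold change was 1.92 (SE 0.31), with an edgeR adjusted p of 0.0894 and a DESeq2 adjusted p of 1.62e-05 (1.62e-05 to 0.452 over the alternatives). QPRT, which carries the end product toward NAD, stood at 3.26, 4.40 and 2.31 in sh-NC and at 7.77, 8.08 and 9.10 in shRBM10. Its log2 fold change was 1.33 (SE 0.32, edgeR adjusted p = 0.137, DESeq2 adjusted p = 0.0154, from 0.00914 to 0.502 over the alternatives), and its 3 shRBM10 libraries were close together. With the GC trend removed the log2 fold change was 1.30 for KYNU and 1.74 for QPRT, and without sh-NC replicate 2 it was 1.75 and 1.496.

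Among 22 other genes known as AHR targets, 19 were in the table and 16 were tested. One passed the unadjusted limits upward (6.25%) and 1 downward (6.25%), and the median log2 fold change was -0.09. With the GC trend removed, 1 passed upward and 2 downward, beside 3.6% and 1.39% of all genes. The 2 downward were EREG and PTGS2, named after their values were seen. Without sh-NC replicate 2, 2 passed upward and 3 downward, beside 4.81% and 1.54% of all genes. VAV3, a guanine nucleotide exchange factor, stood at 2.62, 2.98 and 2.85 normalized CPM in sh-NC and at 15.6, 11.1 and 4.91 in shRBM10 (log2 fold change 1.90, SE 0.42, edgeR adjusted p = 0.129, DESeq2 adjusted p = 0.00206, from 0.00206 to 0.502 over the alternatives). All shRBM10 libraries were above all controls, library C was again the nearest to them, and the log2 fold change was 1.52 with the GC trend removed and 1.85 without sh-NC replicate 2. ALDH3A1, an aldehyde dehydrogenase, stood at 125, 178 and 130 in sh-NC and at 57.5, 76.3 and 80.8 in shRBM10, without overlap. Its log2 fold change was -1.01 (SE 0.25, edgeR adjusted p = 0.137, DESeq2 adjusted p = 0.0207, from 0.0207 to 0.533 over the alternatives) and was -0.57 with the GC trend removed and -0.91 without sh-NC replicate 2. NQO1, a quinone reductase, had a log2 fold change of -0.76 (SE 0.38) that did not pass.

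The chaperone complex that holds AHR had 5 tested genes, and 1 of them passed the unadjusted limits. HSP90AA1, the inducible HSP90, stood at 517, 391 and 595 normalized CPM in sh-NC and at 1529, 1164 and 695 in shRBM10, without overlap (log2 fold change 1.17, SE 0.34, edgeR adjusted p = 0.153, DESeq2 adjusted p = 0.0288, from 0.0288 to 0.566 over the alternatives). The log2 fold change was 0.93 both without sh-NC replicate 2 and with the GC trend removed, and no gene of the complex then passed the unadjusted limits. The constitutive HSP90AB1 had a log2 fold change of 0.15 (SE 0.26).

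Of the 18 genes on the list of other bHLH-PAS proteins, which also takes in coactivators and clock proteins such as PER3, 14 were tested. Of these 3 passed the unadjusted limits upward (21.4%) and none downward. NCOA3, a coactivator, stood at 31.6, 9.17 and 28.8 normalized CPM in sh-NC and at 92.4, 68.8 and 34.3 in shRBM10 (log2 fold change 1.49, SE 0.48, edgeR adjusted p = 0.156, DESeq2 adjusted p = 0.0395, from 0.00815 to 0.566 over the alternatives), 1.08 with the GC trend removed and 1.02 without sh-NC replicate 2. HIF1A, the hypoxia factor that also pairs with ARNT, stood at 68.0, 21.2 and 65.5 in sh-NC and at 137, 162 and 65.8 in shRBM10. These groups overlapped, and the log2 fold change of HIF1A of 1.24 (SE 0.46) was 0.78 without sh-NC replicate 2 and 0.67 with the GC trend removed. PER3, a clock protein, overlapped as well, with a log2 fold change of 1.04 (SE 0.43) that was 0.88 with the GC trend removed and 0.66 without sh-NC replicate 2. EPAS1, a relative of HIF1A, had one of -0.08 (SE 0.30). With the GC trend removed, or without sh-NC replicate 2, 1 of the 14 passed upward, beside 3.6% and 4.81% of all genes upward and 1.39% and 1.54% downward.

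All 11 listed HIF targets were tested and 2 passed the unadjusted limits, both downward (18.2%, beside 1.53% of all genes). With the GC trend removed 2 passed downward and without sh-NC replicate 2 only 1, beside 1.39% and 1.54% of all genes. CA9, a carbonic anhydrase, was counted 23, 14 and 18 times in the controls and 3, 5 and 9 times with the RBM10 shRNA. Its log2 fold change was -1.74 (SE 0.44), -1.35 with the GC trend removed and -1.80 without sh-NC replicate 2. The edgeR adjusted p of CA9 was 0.144, and DESeq2 set no adjusted p for it. The counts of ANKRD37 were 39, 55 and 26 in the controls and 19, 29 and 16 with the RBM10 shRNA, with overlapping groups. Its log2 fold change of -1.07 (SE 0.47, edgeR adjusted p = 0.201, DESeq2 adjusted p = 0.178) was -1.50 with the GC trend removed and -0.57 without sh-NC replicate 2. Of the 4 electron donors of P450 enzymes and the 6 tested genes of estrogen metabolism none passed, but with the GC trend removed 1 donor did so downward, CYB5B, named after its value was seen. POR, the reductase that feeds CYP1B1, had a log2 fold change of -0.34 (SE 0.25).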

How the data were processed

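Poly(A) RNA of 6 PC9 samples (3 sh-NC, 3 shRBM10) was sequenced by the study. The authors deposited estimated counts per gene (16306) and per RefSeq transcript (76563), not normalized, on genome build hg38 per the labels. The aligner, counter and annotation are not given in the sources used here. Of the deposited estimated counts, 87.5% had no decimal part (tolerance 0) in the gene table and 41.1% in the transcript table. Columns of other measures (18 in either table, namely FPKM, TPM and normalized counts) and of group means (8) were not used, because 2 shRBM10 columns match no sample title and were admitted for 1 measure only. The protocol text names 2 library kits without assigning them.

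Counts were rounded, filtered (filterByExpr), normalized by TMM and fitted by the quasi-likelihood functions glmQLFit and glmQLFTest of edgeR 4.0.16 (with limma 3.58.1 under R 4.3.3) over all 6 libraries without covariates. Adjusted p-values are Benjamini-Hochberg over all genes tested, with limits of 0.05 and an absolute log2 fold change of 1. The standard error is the log2 fold change divided by the square root of F. Levels are CPM of the TMM-scaled library, and per kilobase they use the RefSeq transcript length in GENCODE 29 (for AHRR the longest GENCODE transcript, 5661 bases). The length for ARNT was that of NM_001668 alone (4887 bases). For 97.8% of tested genes the GC content was known, and its trend in each library (spline, 5 degrees of freedom) was removed through offsets. DESeq2 1.42.0, limma-voom, other normalizations and filters and each library left out were tried as alternatives. The fits were tested on simulated data, which held no GC trend and no deviating library, so these features were not covered. Where nothing says that samples came from separate cultures, p-values measure only the spread between these samples.

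The members, lists and limits were chosen with earlier results of these data known. Genes named are the members, RBM10, every pathway or P450 gene past the unadjusted limits, 8 fixed pathway genes, and the 5 genes most like CYP1B1 and ARNT2. CYP2S1, CYP11A1, CYP51A1, CYP4F11, CYB5B, EREG and PTGS2 were named after their values were seen. Some of these genes are not reported here.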

Additional observations from a re-analysis of the deposited data

How the results depend on the processing

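Across the alternatives, CYP1B1, AHRR and TIPARP were higher and ARNT2 lower in shRBM10 in every fit. With a library left out, the log2 fold change lay between 1.05 and 1.79 for CYP1B1, 0.47 and 1.02 for AHR, 0.57 and 1.05 for AHRR, 0.018 and 0.27 for ARNT (0.018 without sh-NC replicate 2), -2.24 and -1.90 for ARNT2, and 0.60 and 1.17 for TIPARP. With the GC trend removed ARNT2 stood at -1.80. With the GC trend removed and sh-NC replicate 2 left out, an alternative chosen after seeing the data, AHR stood at 0.030, TIPARP at 0.45 and ARNT turned to -0.032.

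The 2 genes called over all genes became 574 with DESeq2, 31 with the filter of 1 count, 9 with the GC trend removed, 261 with that and without sh-NC replicate 2, 0 with library size only, and 0 to 23 with a library left out (23 without sh-NC replicate 2, 5 without replicate 1, 0 without any other). The pathway genes past the unadjusted limits upward (7) became 4 with the GC trend removed, 3 with sh-NC replicate 2 also left out and 4 to 10 with a library left out (4 without library A). Downward (3) they became 5 with the GC trend removed, 1 with upper-quartile scaling, library size only or the filter of 10 counts, and 1 to 4 with a library left out (1 without library A). The 1 P450 gene became 0 with the filter of 10 counts, which removes it. The causes were not tested. Of the calls on the unadjusted p, 86.8% were upward, 72.1% with the GC trend removed, 75.8% without sh-NC replicate 2 and 73.9% without library A. The all-gene median log2 fold change of 0.03 was 0.16 with library size only and 0.11 with the GC trend removed. The adjusted p of ARNT transcript use lay between 0.963 and 1.00. Libraries B and C carry no replicate number, but the count columns of both groups end in the letters A to C. Same-letter libraries deviated from their group means with correlations of 0.40, -0.04 and -0.33. Deviations from the mean of 3 libraries depend on each other, so these correlations cannot decide whether same-letter libraries were paired. A replicate block by letter, added after seeing the data, gave 861 genes called. With the GC trend also removed it gave 0 genes called, 4 pathway genes upward and 5 downward, ARNT2 at -1.81 and an all-gene median of 0.12. CYP1A1, with 12 counts or fewer per library, did not pass the filter of the main fit, and no fold change is given for it.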
